A study of Homo sapiens with 2 samples.

Results

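The regions described here are the CpG-rich promoters of protein-coding genes. A promoter was the interval from 500 bp before to 500 bp after the transcription start of the MANE Select transcript, the single transcript per gene on which RefSeq and Ensembl agree, and starts on the autosomes were taken from GENCODE release 44 lifted to hg19. An interval was CpG-rich when its sequence had a GC content of at least 55% and an observed/expected CpG ratio of at least 0.75. This ratio is the number of CpG dinucleotides divided by the number that the C and G content alone would give. Of 18069 promoters on the autosomes, 7913 were CpG-rich, and 7124 of these had at least 10 CpG cytosines with 5 or more reads in both libraries and are the members. The other 789 were left out because they had fewer such sites, and 403 of them had 0. In all, 14479 promoters of any CpG class passed the same site rule.

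The study compared SKNO-1, an acute myeloid leukemia cell line that carries the RUNX1-RUNX1T1 (AML1-ETO) fusion of t(8;21), with SKNO1-siAE, which the study's text writes as SKNO-siAE. SKNO1-siAE was made from SKNO-1 by infection with pRRLcPPT.hPGK, a lentiviral vector whose siAGF1 oligonucleotides target the junction of the fusion mRNA, and both lines grew in the same medium. Methylation was measured by MCC-Seq, in which bisulfite turns unmethylated cytosine into a base read as thymine and probes then capture selected regions. There was 1 library per cell line, without replicates, so every difference below describes these libraries, the effect of silencing cannot be told apart from other differences between them, and no test between the conditions was possible. Whether SKNO1-siAE is a clone or a mixed population is not given in the sources used here, and methylation counts do not measure how far the fusion transcript was silenced.

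CpG islands are stretches in which CpG dinucleotides were kept during evolution, mostly because they stay unmethylated in the germline. They cover the starts of most housekeeping genes and of many developmental genes. An unmethylated island start is permissive for transcription whether or not the gene is active, whereas dense methylation of the island goes with stable silencing. Exceptions in healthy cells include imprinted genes, where 1 parental copy is methylated, and germline genes, which are methylated in somatic cells. In leukemia cells, islands of developmental genes that Polycomb proteins hold silent often gain methylation.

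Upstream sequences of 4 members show the patterns found at CpG-rich starts, and they are given 5′ to 3′ in the direction of transcription from the GRCh37 (hg19) assembly, with each CpG in capitals. FAR1, at chr11:13690015-13690214 on the plus strand, was methylated in SKNO-1 only. ZC3HAV1L, at chr7:138720789-138720988 on the minus strand, was methylated in SKNO1-siAE only. ZKSCAN7, at chr3:44596485-44596684 on the plus strand, was methylated in both. RPL28, at chr19:55897100-55897299 on the plus strand, was unmethylated in both. Each stretch is the 200 bases before the start.
FAR1: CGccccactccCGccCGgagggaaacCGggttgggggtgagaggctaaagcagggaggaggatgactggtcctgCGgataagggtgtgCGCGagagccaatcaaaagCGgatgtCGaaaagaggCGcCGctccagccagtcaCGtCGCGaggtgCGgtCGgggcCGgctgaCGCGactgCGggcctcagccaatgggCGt
ZC3HAV1L: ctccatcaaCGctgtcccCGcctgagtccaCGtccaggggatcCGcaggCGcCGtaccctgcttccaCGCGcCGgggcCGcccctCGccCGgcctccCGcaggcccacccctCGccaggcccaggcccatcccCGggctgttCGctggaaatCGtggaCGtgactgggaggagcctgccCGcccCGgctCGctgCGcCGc
ZKSCAN7: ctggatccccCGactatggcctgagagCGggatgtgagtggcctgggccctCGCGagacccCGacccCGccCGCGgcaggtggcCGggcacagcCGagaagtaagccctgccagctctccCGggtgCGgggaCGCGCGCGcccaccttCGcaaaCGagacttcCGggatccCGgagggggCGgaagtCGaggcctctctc
RPL28: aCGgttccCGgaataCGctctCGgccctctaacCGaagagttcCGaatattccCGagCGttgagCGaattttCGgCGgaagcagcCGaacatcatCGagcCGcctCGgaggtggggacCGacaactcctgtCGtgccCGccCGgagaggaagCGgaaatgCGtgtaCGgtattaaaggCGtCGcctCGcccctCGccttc

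The stretches are alike in CpG content but not in methylation. They hold 21 CpGs in FAR1, 23 in ZC3HAV1L, 22 in ZKSCAN7 and 26 in RPL28. A site here is 1 cytosine of a CpG on 1 strand, and its level is methylated reads over all reads, from 0 to 1. In the FAR1 stretch, SKNO-1 had 153 methylated site reads of 153 and SKNO1-siAE had 0 of 115, over 21 sites. In the ZC3HAV1L stretch the pattern was opposite, with 0 of 196 site reads methylated in SKNO-1 and 372 of 372 in SKNO1-siAE, over 26 sites. The 9 covered sites of the ZKSCAN7 stretch had mean levels of 0.958 and 0.994. Of the RPL28 stretch, 1 of 1406 site reads was methylated in SKNO-1 and 1 of 1720 in SKNO1-siAE, over 51 sites. The plot of single sites shows the covered sites of the whole interval, which for FAR1 all lie before the start. The sites farthest from their pattern were 1 ZC3HAV1L site at 0.455 in SKNO1-siAE, 1 ZKSCAN7 site at 0.625 in SKNO-1, and RPL28 sites at 0.2 and 0.136 in SKNO-1.

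The libraries held 83620068 site reads in SKNO-1 and 82164216 in SKNO1-siAE, and 3168726 CpG cytosines had 5 or more reads in both. The members held 366582 of these sites, with a median of 51 per promoter and a median depth of 13 reads per site in each library. Their depth was below that of all shared sites, whose medians were 16 and 15. Intervals and limits given for reads cover counting error only, since the reads carry no molecular identifiers, and 1 read can cover several CpGs of an island, so reads of neighbouring sites are not independent.

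Most CpG-rich promoters were unmethylated in both libraries. A promoter's level was the mean of its site levels, and the median over the 7124 members was 0.00939 in SKNO-1 and 0.0101 in SKNO1-siAE. Both libraries were under 0.1 at 4663 members, which is 65.5% (95% Wilson interval 64.3 to 66.6). The interval treats members as independent, though some share sites, and it does not cover the spread between cultures. Of single member sites, 77.1% had no methylated read in SKNO-1 and 73.0% had none in SKNO1-siAE. A second, smaller set of 704 members (9.88%) was at 0.8 or more in both. Between these limits, 716 members in SKNO-1 and 702 in SKNO1-siAE were from 0.1 to under 0.5, and 383 and 322 were from 0.5 to under 0.8.

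The mean level was lower in SKNO-1, at 0.171 against 0.222 in SKNO1-siAE, a mean difference (SKNO-1 minus SKNO1-siAE) of -0.0514. The median difference was 0, and 5245 members (73.6%) differed by less than 0.05, so the lower mean came from a minority of promoters. The mean difference was negative on each of the 22 autosomes, from -0.0225 on chromosome 9 to -0.0953 on chromosome 4. A difference of at least 0.2, the smallest that the study counted for a region, was the limit for calling a member. By it, 184 members were higher in SKNO-1 and 752 were lower. These are 2.58% and 10.6% of the members, against 3.07% and 13.3% of the 14479 promoters of all classes. By a limit of 0.5, 72 members were higher and 390 were lower, against 1.1% and 5.56% of all promoters called at that limit. The direction was similarly uneven in every CpG class, as 80.3% of the called CpG-rich promoters, 81.2% of those with an intermediate ratio and 82.6% of the CpG-poor ones were lower in SKNO-1.

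What set the CpG-rich class apart was its level rather than the direction of its differences. Promoters of the intermediate class, 5007 with a ratio of at least 0.48 that were not CpG-rich, had mean levels of 0.254 and 0.319 and were under 0.1 in both libraries in 52.8% of cases. The 2348 CpG-poor promoters, with a ratio under 0.48, had mean levels of 0.571 and 0.654, and 8.73% were under 0.1 in both. Within the CpG-rich class the same order held. From the members with a ratio of 0.75 to under 0.80 to those at 0.95 or more, the share under 0.1 in both libraries went from 61.1% to 71.5% and the share lower in SKNO-1 went from 12.0% to 7.83%. Beside the limit itself the values were alike: just inside it, GOLM2 was at 0 and 0.0121, MOCS2 at 0.00556 and 0.0164 and PPT1 at 0 and 0.0242, and just outside it, FKBP15 was at 0 in both, RPL27A at 0.0044 and 0.0176 and ZYX at 0.0139 and 0.

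Some large differences at CpG-rich starts lay between the extremes of the scale. A total of 154 members were under 0.1 in SKNO-1 and at 0.8 or more in SKNO1-siAE, and 28 members were the reverse. The reads of both strands gave the technical spread of such values. The 3946 members with at least 10 CpGs covered on both strands in both libraries had an SD of the difference between strands of 0.0672 in SKNO-1 and 0.0628 in SKNO1-siAE. Between the libraries the SD was 0.202 on the plus strand and 0.206 on the minus strand. Strands of the same library differed by at least 0.2 in 72 members of SKNO-1 (1.82%) and 82 of SKNO1-siAE (2.08%), whereas the libraries differed by this much in 434 members on the plus strand and 463 on the minus strand. Among these members, 69 of the 92 called higher and 275 of the 341 called lower passed 0.2 on each strand alone. The strand comparison covers the spread of reads within a library and not that between cultures.

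Single sites were also lower in SKNO-1 more often than higher. A site was called when its levels were 0.2 or more apart and Fisher's exact test (2-sided, Benjamini-Hochberg adjustment over all shared sites) gave an adjusted p under 0.05. By this rule 8832 member sites (2.41%) were higher in SKNO-1 and 26439 (7.21%) were lower. The background over all shared sites was 4.4% and 11.7%. This test compares the reads of the libraries and not the conditions. At least 5 called sites were found in the higher direction in 421 members and in the lower direction in 1195 members, and 3408 members had none. In 72 members at least 5 sites were called in each direction, and in 53 of these members the mean levels differed by less than 0.2. IAH1, chosen after its values were seen, had 12 sites called higher and 16 called lower, with mean levels of 0.612 and 0.769.

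The members with the largest positive difference, among those with at least 20 sites, were methylated in SKNO-1 and nearly unmethylated in SKNO1-siAE. ASCL2, a basic helix-loop-helix factor of intestinal and trophoblast stem cells (chr11:2291318-2292318), had a level of 1 in SKNO-1 and 0 in SKNO1-siAE at each of 24 sites. FAR1, a peroxisomal fatty acyl-CoA reductase (chr11:13689715-13690715), had the same levels at each of 22 sites. The 0 methylated site reads of 121 in SKNO1-siAE would allow a FAR1 level of up to 0.0248 if they were independent. Neighbouring sites share reads, so the true limit is higher. CBR1, a carbonyl reductase (chr21:37441822-37442822), had a level of 0.953 ± 0.150 (SD over 79 sites) against 0.002 ± 0.0178. KCNN2, a calcium-activated potassium channel, was at 0.916 against 0 over 37 sites. The libraries did not overlap at any site of ASCL2 and FAR1. At CBR1 and KCNN2 the lowest site in SKNO-1 was at 0, and 75 of 79 and 33 of 37 sites were called higher.

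The rest of these 10 members included numbered zinc finger genes, a family of 184 members. ZNF568 and ZNF829 lie head to head on chromosome 19, share all 104 sites and are 1 observation, with 0.964 ± 0.101 against 0.00389 ± 0.0305. The ZNF667 promoter was at 0.895 against 0.0021 over 56 sites and that of ZNF594 at 0.913 against 0.00694 over 48 sites. BASP1, a membrane protein of growing axons, was at 0.947 against 0, and BNIP3, a receptor for the removal of mitochondria by autophagy, at 0.978 against 0.0856. Depth differed among these 10. ASCL2, FAR1 and BASP1 had no site with 10 or more reads in both libraries, and FAR1 had on average 7.73 reads per site in SKNO-1 and 5.5 in SKNO1-siAE. The other 7 had at least 10 such sites, over which the smallest difference was 0.805.

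The members with the largest negative difference were unmethylated in SKNO-1 and almost fully methylated in SKNO1-siAE. MACROD2, an enzyme that removes ADP-ribose from proteins (chr20:13975662-13976662), was at 0 against 1 at each of 21 sites. ZC3HAV1L, a relative of the zinc finger antiviral protein (chr7:138720288-138721288), was at 0 against 0.992 ± 0.0677 over 65 sites. Its 0 methylated site reads of 443 in SKNO-1 would allow a level of up to 0.00677 if they were independent. Here too neighbouring sites share reads, so the true limit is higher. HENMT1, which methylates the ends of germline piRNAs (chr1:109203215-109204215), was at 0 against 0.980 ± 0.102 over 80 sites. NFKBIZ, a nuclear inhibitor of the IκB family (chr3:101567858-101568858), was at 0 against 0.990 ± 0.0338 over 33 sites. MRAS, a small GTPase, was at 0.00198 against 0.975 over 63 sites. The sites of the libraries did not overlap at the first 4 of these. At MRAS they did, since its lowest site in SKNO1-siAE was at 0.111 and its highest in SKNO-1 at 0.125, and 62 of 63 sites were called lower.

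Metabolic enzymes were also among these 10. ISYNA1, which makes inositol phosphate from glucose phosphate, was at 0 against 0.979. MTHFS, an enzyme of folate metabolism, was at 0.00285 against 0.981, and P4HA2, a subunit of collagen prolyl hydroxylase, at 0.0134 against 0.987. ADCY6, an adenylyl cyclase, was at 0 against 0.976 and CCDC62 at 0.0129 against 0.988. Of the 10, HENMT1, MTHFS and CCDC62 had at least 10 sites with 10 or more reads in both libraries, and over those sites the smallest size of the difference was 0.947. ISYNA1, ADCY6 and MRAS had no such site. Total reads of the 10 differed between the libraries too, with a SKNO-1 to SKNO1-siAE ratio from 0.436 at ZC3HAV1L to 2.39 at P4HA2.

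The members with the highest levels in both libraries were nearly fully methylated. BHLHA9, a limb basic helix-loop-helix factor, had levels of 0.997 and 1 over 26 sites. ZKSCAN7, a zinc finger protein, was at 0.991 and 0.994, ADRB1, the beta-1 adrenergic receptor, at 0.990 and 0.996, HSF5, a heat shock factor family member, at 0.989 and 0.999, and SCUBE3, a secreted glycoprotein, at 0.989 and 0.997. None of these 5 had a called site. UBXN8, on which the study centres, RUNX1 and the myeloid factor genes CEBPA and SPI1 were not members. The promoter of UBXN8 was of the intermediate class, with an observed/expected ratio of 0.625 and a GC content of 54.8%. That of CEBPA was CpG-rich but had 7 shared sites, and those of RUNX1 and SPI1 were CpG-poor.

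By distance from the start, CpG-rich promoters formed a trough. Over all members the mean site level in bins of 100 bp was lowest just before the start, at 0.118 in SKNO-1 and 0.157 in SKNO1-siAE from -100 to -1 bp. It was 0.238 and 0.287 from -500 to -401 bp, and it reached 0.549 and 0.625 at -2000 bp and 0.635 and 0.689 at 1900 to 1999 bp. SKNO-1 was the lower library in every 100-bp bin, by 0.0392 before the start and 0.0538 at the downstream end. The next sets were chosen by their levels within 500 bp of the start, which fixes their levels there. Members under 0.1 in both libraries had 0.00501 and 0.00442 from 0 to 99 bp, and climbed to 0.557 and 0.593 downstream. Members at 0.8 or more in both had 0.941 and 0.956 from 0 to 99 bp and 0.573 and 0.730 at -2000 bp.

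Where the libraries differed, the library with the lower promoter level had a trough at the start. From 0 to 99 bp, the 752 lower members had 0.135 in SKNO-1 against 0.761 in SKNO1-siAE, and the 184 higher members had 0.718 against 0.119. These levels chose the sets, so they are a description. The bins from 500 to 2000 bp on either side were not used in the choice, and sites near another start were left out there. Of 655 lower members with at least 10 such flanking sites, 291 (44.4%) were also at least 0.2 lower in the flanks and 12 were higher, with mean levels of 0.545 and 0.769. Of 163 higher members, 44 (27.0%) were higher in the flanks and 15 were lower, with 0.643 and 0.530. The same shares over all 5919 members with flanks were 13.3% lower and 4.43% higher.

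Flanks of the named promoters went both ways. KCNN2 was at 0.915 against 0.0906 in its flanks and BASP1 at 0.782 against 0.0369, as at their starts, whereas the flanks of BNIP3 were at 0.934 and 0.919. For NFKBIZ the flanks were at 0.189 against 0.923. For ZC3HAV1L they were methylated in both libraries, at 0.893 and 0.815 over 11 sites, a difference under 0.2. Of the 9 named higher members with flanks, 3 were at least 0.2 higher there, and ZNF568 and ZNF829 among the 9 are 1 observation. ZNF594 went the other way, at 0.734 against 1 over 15 flank sites. Of the 9 named lower members with flanks, 6 were at least 0.2 lower there. Within the promoter interval, 318 of the 518 lower members with at least 5 sites on each side of the start passed 0.2 on both sides, 99 only before it and 98 only after it.

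Neighbouring starts went with low levels. Of the members, 926 (13.0%) had a MANE Select start on the other strand within 1000 bp that is transcribed away from them. Both libraries were under 0.1 at 91.0% of these against 61.6% of the other members. Among the divergent starts, 7 (0.756%) had higher and 24 (2.59%) had lower levels in SKNO-1, against 2.86% and 11.7% of the other 6198. Overlapping intervals share sites, and 835 members overlapped another member.

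The sequence of the interval also differed between the sets. A search of both strands over the whole interval was made for 9 motifs, by their letters alone. The Sp factor box GGGCGG was in 97.8% of members, so it did not separate the sets. The ETS motif CCGGAAGT was in 10.7% of all members, in 13.9% of those under 0.1 in both libraries and in 3.12% of those at 0.8 or more in both. It was in 14.7% of the members higher in SKNO-1, which had low levels in SKNO1-siAE, and in 0.798% of those lower in SKNO-1. The YY1 motif AAGATGGCG followed this in part, with 6.02% of all members, 8.13% of the low set, 0.426% of the high set, 5.43% of the higher set and 0.665% of the lower set. The NRF1 core CGCATGCG was in 5.95%, 7.23%, 1.99%, 3.26% and 1.86% of these sets in the same order.

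Other motifs were counted in the same way. The cAMP response element TGACGTCA was in 4.65% of all members, 1.63% of those higher and 1.99% of those lower in SKNO-1. The E-box CACGTG, which shares ACGT with it, was in 22.5%, 25.5% and 14.9% of these sets in the same order. The CCAAT box, searched as CCAAT, was in 56.2%, 53.8% and 46.7%. The RUNX motif TGTGGT was in 23.4% of all members, 26.6% of those higher and 21.4% of those lower in SKNO-1, and the TATA box, searched as TATAAA, in 12.3%, 13.6% and 13.8%. Such matches describe the letters and not bound sites. In the sequences shown above, ZKSCAN7 holds the ETS motif on its minus strand and FAR1 holds CCAAT.

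Gene groups were drawn from family names and textbook lists, and 32 groups together covered 938 members. In these, 29 members were higher in SKNO-1 and 119 were lower, which is 3.09% and 12.7%, near the 2.58% and 10.6% of all members. The groups differed widely from each other. The lists were assembled with earlier results of these data known, so their counts are descriptions and no set test was made.

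Housekeeping genes had low and nearly equal promoters, with 179 of 192 members under 0.1 in both libraries. None of the 45 cytosolic ribosomal protein genes, 34 mitochondrial ribosomal protein genes, 21 proteasome genes, 14 genes of respiratory complex I, 40 splicing factor genes and 12 aminoacyl-tRNA synthetase genes differed by 0.2, although 1 of 13 complex I genes was lower when sites had at least 10 reads. Of the 45 ribosomal protein members, 44 were under 0.1 in both libraries. The exception was RPL39L, a copy of RPL39 that is active mainly in testis, at 0.700 and 0.527. Likewise, 39 of the 40 splicing factor members were under 0.1, and the other, SRSF12, was at 0.8 or more in both. Both were named after their values were seen. The 26 DNA replication genes had 1 called member, POLE4, a histone-fold subunit of DNA polymerase epsilon, at 0.853 in SKNO-1 and 0.0214 in SKNO1-siAE over 17 sites, of which 5 had 10 or more reads in both libraries.

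Genes of the DNA methylation machinery were also low. None of 10 members differed by 0.2, and 9 were under 0.1 in both libraries. The maintenance methyltransferase DNMT1 was at 0.00903 and 0.0311, the de novo methyltransferase DNMT3A at 0 and 0.0444, the oxidase TET2 at 0 and 0.00406 and the DNMT1 cofactor UHRF1 at 0.0924 and 0.0597. The reader MBD2 was the highest, at 0.307 and 0.183 over 11 sites. The 12 members of the UBX-domain and VCP group, the family of UBXN8, had no called member either, and in groups this small the shares of all members, 2.58% higher and 10.6% lower, stand for few promoters. In this group VCP, the ATPase that UBX domains bind, was at 0.0401 and 0.0399. Among 21 Polycomb and Trithorax members, 16 were under 0.1 in both libraries and 2 were called. BMI1, a core subunit of Polycomb repressive complex 1, was at 0.539 in SKNO-1 and 0 in SKNO1-siAE, and CBX7, a reader subunit of this complex, was at 0.150 against 0.759. BMI1 had 682 reads in SKNO-1 and 267 in SKNO1-siAE.

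HOX genes, which set position along the body axis, were mostly methylated in both libraries. None of the 21 HOX members was under 0.1 in both libraries, 12 were at 0.8 or more in both, and the mean was 0.862 in SKNO-1 and 0.774 in SKNO1-siAE. HOXA9 was at 0.973 and 0.964, HOXA10 at 0.951 and 0.971 and HOXD9 at 0.984 and 0.976. Of the 21 HOX members, 4 were called, all higher in SKNO-1, and 0 were lower. Over all CpG-rich members, 2.58% were higher and 10.6% were lower. HOXB9 was at 0.812 ± 0.288 (SD over 61 sites) against 0.357 ± 0.397, HOXD11 at 0.973 ± 0.115 (106 sites) against 0.654 ± 0.263, and HOXD13 at 0.965 against 0.723. The median difference of the group was 0.00899. With at least 10 reads per site, 5 members were higher and 1 was lower.

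The other developmental regulators held calls in both directions, and the share of all members was 2.58% higher and 10.6% lower. Of 60 other homeobox members, 1 was higher and 9 were lower. PAX5, the regulator of B cell identity, was at 0 against 0.905, NKX3-2 at 0.00433 against 0.876, and TSHZ3 at 1 against 0 over 16 sites. NKX3-2 and TSHZ3 had on average 5 reads per site in SKNO1-siAE, the smallest depth that a site could have. Of 41 SOX, TBX and forkhead members, 1 was higher and 8 were lower, and 5 of the 32 left were lower when sites had 10 or more reads. FOXO3, a forkhead factor under insulin control, was at 0 against 0.874, TBX2 at 0 against 0.852 and TBX1 at 0.355 against 0.959. Of 19 basic helix-loop-helix members, 3 were higher and 4 were lower, with the Notch target HEYL at 0.00224 against 0.910 and its relative HEY2 at 0.886 against 0.348.

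Wnt ligands and their Frizzled receptors had a median difference of -0.11. Of 19 members, 9 were lower in SKNO-1 (47.4%) and 0 were higher, where 10.6% of all members were lower and 2.58% higher. The group means were 0.421 and 0.716. Its median in SKNO1-siAE was 0.914, and of the 1237 members at 0.8 or more in that library, 35.0% were lower. The ligands WNT6 and WNT9A were at 0 against 0.955 and at 0.0382 against 0.974, and the receptor FZD6 was at 0.159 against 0.915. In the same group, the receptors FZD1 and FZD7 were unmethylated in both, at 0.00275 and 0.0216 and at 0 in both, and the ligand WNT3A was at 0.948 and 0.919. The group count depended on depth, since 12 members were left when sites had 10 or more reads, and 3 of them were lower. The median ratio of reads, SKNO-1 to SKNO1-siAE, was 0.820 in this group and 1.01 over all members.

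Ephrins and their receptors, which guide cell contacts, had 5 of 10 members lower (50.0%) and 0 higher, where 10.6% of all members were lower and 2.58% higher. EPHB4 was at 0.00577 ± 0.0465 (SD over 65 sites) against 0.657 ± 0.305, EPHA2 at 0.209 against 0.844 and EPHB3 at 0.0927 against 0.479. Of 64 ion channel and neurotransmitter receptor members, 23 were lower (35.9%) and 3 were higher, and 13 of 46 were lower with at least 10 reads per site. Their median level in SKNO1-siAE was 0.894. Of the 1237 members at 0.8 or more in SKNO1-siAE, 433 (35.0%) were lower, nearly the same share. KCNQ1, a potassium channel in an imprinted domain, was at 0 against 0.960 over 15 sites, and GRM8, a glutamate receptor, was at 0.919 against 0 over 19 sites. Of 139 solute carrier members, 24 were lower (17.3%) and 2 were higher, and 15 of 97 were lower with at least 10 reads per site. SLC47A1, an exporter of organic cations, was at 0.0289 against 0.961, SLC46A3, a lysosomal transporter, at 0.0162 against 0.824, and SLC8A1, the sodium/calcium exchanger, at 0.832 against 0.00591.

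Zinc finger genes with numbered ZNF names were called in both directions. Of 184, 10 were higher (5.43%) and 13 were lower (7.07%), against 2.58% higher and 10.6% lower of all members. By chromosome, which was looked at after the values were seen, 9 of the 74 members on chromosome 19 were higher and 4 were lower, against 1 and 9 of the 110 on other autosomes. Members on chromosome 19 outside this family had 2 higher and 26 lower of 345. ZNF568 and ZNF829, which share their sites, count as 2 of the 9. In the opposite direction, ZNF555 on the same chromosome was at 0 against 0.991 over 16 sites.

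Germline genes, which are methylated in somatic cells, mostly had high levels. Of 13 germline members, 10 were at 0.8 or more in both libraries, such as SYCP3, a protein of the meiotic chromosome axis, at 0.965 and 0.976 and the piRNA pathway gene TDRD9 at 0.970 and 0.979. The others were HENMT1, given above, MEIOB at 0.738 and 0.902 and SMC1B at 0.613 and 0.770. HENMT1 was the called member, and 2 of 12 were lower when sites had 10 or more reads. Of 19 imprinted members, 4 were at 0.8 or more in both libraries and 7 were under 0.1 in both. In this group 6 were lower in SKNO-1 (31.6%) and 1 was higher (5.26%), against 10.6% and 2.58% of all members. ZNF331 was at 0.447 and 0.494 and MEST was at 0.989 and 0.952. PLAGL1, a zinc finger factor of fetal growth, was at 0.468 ± 0.293 (SD over 160 sites) against 0.884 ± 0.163, and NAA60 was at 0.00576 against 0.555. CDKN1C, a growth-restraining CDK inhibitor, was at 0.00317 against 0.406, and ZDBF2, the higher member, was at 0.841 against 0.624.

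Blood transcription factor genes were mostly unmethylated in both libraries. Of 29 members, 23 were under 0.1 in both, 4 were lower in SKNO-1 (13.8%, near the 10.6% of all members) and 0 were higher. MYB was at 0.00631 and 0.00147, GFI1 at 0.00494 and 0.00435, IKZF1 at 0.00701 and 0.0178 and CEBPB at 0 and 0.0265. IRF8, a factor of monocyte and dendritic cell fate, was methylated in both, at 0.905 and 0.914. LEF1, a Wnt effector, was at 0 against 0.926 over 18 sites, GATA3, a T cell regulator, at 0.625 against 0.946 over 90 sites and TAL1 at 0.00758 against 0.238 over 44 sites. Depth mattered here, since 1 of the 19 members with enough sites of 10 or more reads was lower, and over the 8 such sites of TAL1 the levels were 0 and 0.0149.

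A list of RUNX1-RUNX1T1 targets was drawn up from general knowledge and was not checked against the literature. Of its 12 members, 5 were lower in SKNO-1 (41.7%) and 0 were higher, against 10.6% lower and 2.58% higher of all members. KIT, the stem cell factor receptor, was at 0.132 ± 0.312 (SD over 89 sites) against 0.584 ± 0.331. TRH, thyrotropin-releasing hormone, was at 0.219 ± 0.346 against 0.874 ± 0.236, and JUP, plakoglobin, was at 0.108 ± 0.273 against 0.548 ± 0.356. TERT, the telomerase catalytic subunit, was at 0.301 against 0.605 and POU4F1 at 0 against 0.212. The other 7 were under 0.1 in both, including RUNX3 at 0.0246 and 0.0506. Reads at KIT numbered 5154 in SKNO-1 and 1251 in SKNO1-siAE, and over its 58 sites with at least 10 reads in both the levels were 0.00125 and 0.473. Over the 7 such sites of TRH the levels were 0.456 and 0.694, and over the 22 of JUP they were 0.201 and 0.533. When sites had 10 or more reads, 4 of 8 members of this group were lower.

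Tumour suppressor genes that are often methylated in leukaemia were under 0.1 in both libraries in 12 of 19 members (63.2%), near the 65.5% of all members. RASSF1 was at 0.00883 and 0.00743, SOCS1 at 0.0187 and 0.0133, and RB1 at 0.0228 and 0.0123. There were 3 lower members (15.8%) and 0 higher, against 10.6% lower and 2.58% higher of all members. THBS1, thrombospondin, was at 0.00433 against 0.545, TP73, a transcription factor, at 0.672 against 0.899 and MGMT, which repairs alkylated guanine, at 0.513 against 0.723. When sites had 10 or more reads, 1 of 14 was lower, and over the 14 such sites of TP73 the direction turned, with levels of 0.913 and 0.864. Of 11 interferon response members, IFIT5 was lower, at 0.00076 against 0.243, and over its 16 sites with at least 10 reads in both the levels were 0.00223 and 0.0847.

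Total reads moved with the differences. Among the 1939 members whose ratio of reads, SKNO-1 to SKNO1-siAE, was under 0.8, 45 were higher and 263 (13.6%) were lower. Among the 3081 whose reads were within 25% of each other, 78 were higher and 302 (9.80%) were lower, and among the 2104 with more reads than that in SKNO-1, 61 were higher and 187 (8.89%) were lower. Lower members outnumbered higher ones in each of these bins. The part of capture or copy number in single differences was not tested.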

How the data were processed

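MCC-Seq was done on 1 library each of SKNO-1 and SKNO1-siAE. The authors captured bisulfite-treated DNA with SeqCap Epi probes, sequenced 125-bp paired reads, trimmed them (the submitters' processing notes name cutadapt 1.4.2), aligned them to hg19 with BSMAP 2.73 and called methylation from unique sequences. The authors deposited raw counts of methylated and unmethylated reads for each CpG cytosine and strand, and each deposited site had at least 5 reads. How PCR duplicates were treated otherwise is not given in the sources used here.

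Sites with 5 or more reads in both libraries were kept, with a median depth of 13 reads per member site, so single sites are imprecise and promoter means rest on at least 10 sites. Levels, classes (low under 0.1, high from 0.8), strand spread and profiles were computed as in the text. For single sites, reads were compared by a 2-sided Fisher's exact test with Benjamini-Hochberg adjustment, checked on simulated data. Wilson intervals are 95%, and 0 methylated reads were read as allowing 3.

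Named were the 10 largest differences in each direction and the 5 highest in both libraries (at least 20 sites), up to 3 called members per gene group, a few genes of the study or of myeloid biology, and 3 promoters on each side of the ratio limit, with other genes chosen after their values were seen. Members and lists were chosen with earlier results of these data known. Alternatives covered depth, weighting, strands, site number, interval, class limits, read balance and overlap. Sequence was read with samtools 1.23.1 and pysam 0.24.0, statistics were computed in Python 3.11.15 with pandas 2.3.3, scipy 1.17.1, numba 0.67.0 and numpy 2.4.6, and plots were drawn with matplotlib 3.10.9. Some genes that this rule names are not reported here.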

Additional observations from a re-analysis of the deposited data

How the results depend on the processing

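No paired analysis was possible because each cell line had 1 library, and no library could be left out. Of 77 recomputed values, 44 stayed within 1.5 times a count or within the counting interval of a value, 33 moved further and 0 reversed.

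The mean difference of CpG-rich promoters, -0.0514, became -0.0436 with at least 10 reads per site, -0.0507 with pooled reads, -0.0481 with at least 20 sites, -0.0461 within 250 bp, -0.0547 with own sites of each library, -0.0473 with reads within 25 percent and -0.0542 with 1 promoter per overlapping group. The numbers higher and lower, 184 and 752, became 77 and 330 of 3241 with ratio at least 0.85 and GC at least 60 percent. They were 78 and 302 of 3081 with reads within 25 percent, and 78 and 289 of 3946 on each strand alone. Fewer promoters entered in each case, and the strand setting also asked both strands to pass 0.2. By the main rule the same 3946 held 92 higher and 341 lower. With at least 10 reads per site the numbers were 150 and 502 of 5331. The percentage under 0.1 in both, 65.5, became 63.9 with pooled reads, 66.8 with merged strands, 74.9 within 250 bp, 66.9 in the stricter class and 63.9 without overlaps. Called sites, 8832 higher and 26439 lower, became 1184 and 4626 with Bonferroni adjustment, and 5315 and 14080 with at least 10 reads, where 173989 sites were left.

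From 0 to 99 bp the levels 0.146 and 0.191 became 0.154 and 0.210 with pooled reads and 0.157 and 0.194 with at least 10 reads. At 1900 to 1999 bp, 0.635 and 0.689 became 0.647 and 0.710 with pooled reads, and 0.645 in SKNO-1 with at least 10 reads. Over all gene groups the lower members fell from 119 to 77 with at least 10 reads, where 760 of 938 were left, and 109 of 128 counts of single groups stayed within 1.5 times. In the intermediate class the mean difference of -0.0651 became -0.0636 with pooled reads and -0.0551 with at least 10 reads, and in the CpG-poor class -0.0832 became -0.0804 with at least 10 reads. The cause of these shifts was not tested where fewer sites or promoters do not show it.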
